A study of Mus musculus with 18 samples.

Results

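Nonmuscle myosin II pulls on actin filaments and thereby generates the contractile force of a cell. The motor consists of heavy chains with a regulatory and an essential light chain, and phosphorylation of the regulatory chain switches it on. The small GTPase RhoA acts upstream. Exchange factors load RhoA with GTP, RhoA then activates the ROCK kinases, and these kinases phosphorylate the regulatory light chain and inhibit the phosphatase that removes the phosphate, while myosin light chain kinase (MLCK) phosphorylates the same chain in response to calcium. In dendritic cells (DCs), actomyosin contraction helps to squeeze the cell body and nucleus through narrow pores. The 10 genes described here were chosen by name from this pathway: Myh9 (heavy chain of myosin IIA), Myl12a and Myl12b (regulatory light chains), Myl6 (essential light chain), Rhoa, Rock1 and Rock2 (ROCK kinases), Arhgef1 and Arhgef2 (exchange factors for RhoA), and Mylk (MLCK). They are 10 of 29875 genes in the count table and of 13844 genes that passed the filter on low counts, which all 10 members passed.

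RNA was sequenced from DCs grown from bone marrow of wild-type C57Bl6/J mice aged 8 to 12 weeks. All cells were cultured with GM-CSF, matured with lipopolysaccharide (LPS) at 200 ng/ml for 24 hours from day 8, and loaded into migration chambers. Cells of 4 groups migrated in collagen gels of 1.7, 2.6, 3.5, or 4.4 mg/ml toward a CCL19 source for 5 hours before RNA was taken, and 2 suspension groups sat in the same chambers without collagen. Each of the 6 groups had 3 biological replicates, so that 12 collagen and 6 suspension libraries were compared, but the sources do not say whether replicates came from separate mice. The suspension groups are titled plus CCL19 and without CCL19. Their titles and library names give opposite CCL19 states, so they are named by title and no CCL19 effect is read from them. Whole populations were lysed, and a lower share of expressing cells cannot be told apart from less RNA per cell.

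Total counts ranged from 13062944 to 28059839 per library (median 17344954). By the library names, all 6 libraries of a replicate, each from another group, have a date and a sequencing lane in common. The methods name male mice, but Xist, the RNA of the inactive X chromosome, was at 29.3 to 229 CPM (counts scaled to a common library size) in all libraries of replicates 1 and 2 and at 0 in replicate 3, with the Y-linked gene Eif2s3y at 0 in replicates 1 and 2 and at 16.6 to 35.4 CPM in replicate 3. Values within each replicate are therefore given beside the main results. All 9 DC markers (including Cd74, H2-Ab1, Ccr7, and Fscn1) were detected, and their summed level was 15571 to 48209 CPM in suspension and 22424 to 52435 CPM in collagen. Cd74 alone had medians of 18800 and 19623 CPM, while Itgax had 104 and 179 CPM and Flt3 10.1 and 5.56 CPM. Of the 9, 1 was lower in collagen. With the replicate number as a block in the fit, 1 was higher and 1 lower. Eosinophil markers (8 genes, among them Prg2 and Epx) summed to 117 to 1339 CPM in suspension and 14 to 168 CPM in collagen, and all 7 that could be tested were lower in collagen. Neutrophil markers summed to 636 to 9766 CPM in suspension and 1046 to 5174 CPM in collagen, and 3 of 10 were lower. Macrophage markers summed to 215 to 740 CPM in suspension and 225 to 1395 CPM in collagen, and 5 of 7 were higher with the block and 0 without it. Basophil and mast cell markers (81.3 to 275 and 47.8 to 272 CPM) were lower for 1 of 7 and with the block for 3, and platelet markers (15.9 to 185 and 24.9 to 255 CPM) were higher for 1 of 4 tested and with the block for 2, while 1 was lower with the block. Fibroblast markers (7.58 to 18.1 and 10.7 to 121 CPM) were higher for 2 of 5 tested with the block and for 0 without it. Their highest sum, 121 CPM, was in the 2.6 mg/ml library of replicate 2. None of these markers was at 0 in every library. Whether the other cells contributed to differences in the contractility genes was not tested.

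The regulatory light chains carry the phosphorylation site on which the pathway converges, and their genes are neighbors on chromosome 17. Myl12b (chr17:70973133-70990890, GRCm38, minus strand) lies 2765 bases from Myl12a (chr17:70993656-71002878, minus strand). Each encodes 172 residues, of which 168 are identical, and the coding sequences share 498 of 516 bases. The first 120 coding bases are printed because they hold the codons of the threonine and serine (residues 19 and 20, counting the start methionine) that MLCK and ROCK phosphorylate. Capitals mark the 5 bases at which the genes differ.
Myl12a: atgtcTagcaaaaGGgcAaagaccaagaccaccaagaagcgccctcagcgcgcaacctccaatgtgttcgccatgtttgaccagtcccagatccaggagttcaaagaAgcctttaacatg
Myl12b: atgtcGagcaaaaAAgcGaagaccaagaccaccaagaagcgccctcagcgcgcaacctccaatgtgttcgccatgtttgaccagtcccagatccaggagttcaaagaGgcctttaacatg
The stretch with both phosphorylated residues has no difference between the genes, and the longest identical run in the coding sequence spans 102 bases, more than the 50-base reads. Of the 50-base coding windows of Myl12b, 37.3% also occur in Myl12a. In the annotation used here (GENCODE M21), a second gene that is also named Myl12b spans both loci and shares 26.7% of the exon bases of Myl12b and 13.8% of those of Myl12a. This second gene has no row in the count table. The methods name RSEM for TPM values, but how reads that match several genes entered the whole-number counts is not given in the sources used here, so the split between Myl12a and Myl12b is uncertain.

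Per kilobase of exon, the members ranged from abundant to scarce (the plot of counts by library shows each gene on its own scale). Length was the union of all annotated exons of a gene, such as 3187 bases for Myl6 and 12928 for Myh9. The lengths of the transcripts expressed were not determined, so the order of genes per length depends on this choice. In suspension (n = 6), 3 of the 4 motor genes had the highest levels per length, with Myl6 at 112 ± 61.9, Myh9 at 108 ± 25.9, and Myl12a at 91.8 ± 28.7 CPM per kilobase (mean ± SD). The ranges of these 3 genes overlapped, so their order was not resolved. Rhoa followed at 32.7 ± 3.61, Arhgef1 at 26 ± 6.64, and Arhgef2 at 19.3 ± 1.98 CPM per kilobase, and the range of Arhgef1 overlapped those of both its neighbors. Within single suspension libraries, however, the per-length ratio of Arhgef1 to Arhgef2 was 1.005 to 2.27, so Arhgef1 was the higher in each. Mylk was at 8.16 ± 3.29 and Myl12b at 5.87 ± 1.54 CPM per kilobase, and these overlapped as well. The ROCK kinases had the lowest levels per length, with Rock2 at 2.35 ± 1.47 and Rock1 at 1.51 ± 0.757 CPM per kilobase, again with overlapping ranges. Within single libraries, Rock2 was above Rock1 per length in every case. The per-length ratio of Rock1 to Rock2 was 0.552 to 0.853 in suspension and 0.326 to 0.830 in collagen. Myl12a was thus listed at a per-length level that was 15.8 ± 3.64 times that of Myl12b in suspension and 23.2 ± 4.31 times in collagen (n = 12), with the counting limit given above. Every member was well above the counting floor, since the lowest count in any library was 156 for Myl12b and 182 for Rock1.

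**Figure D1:**
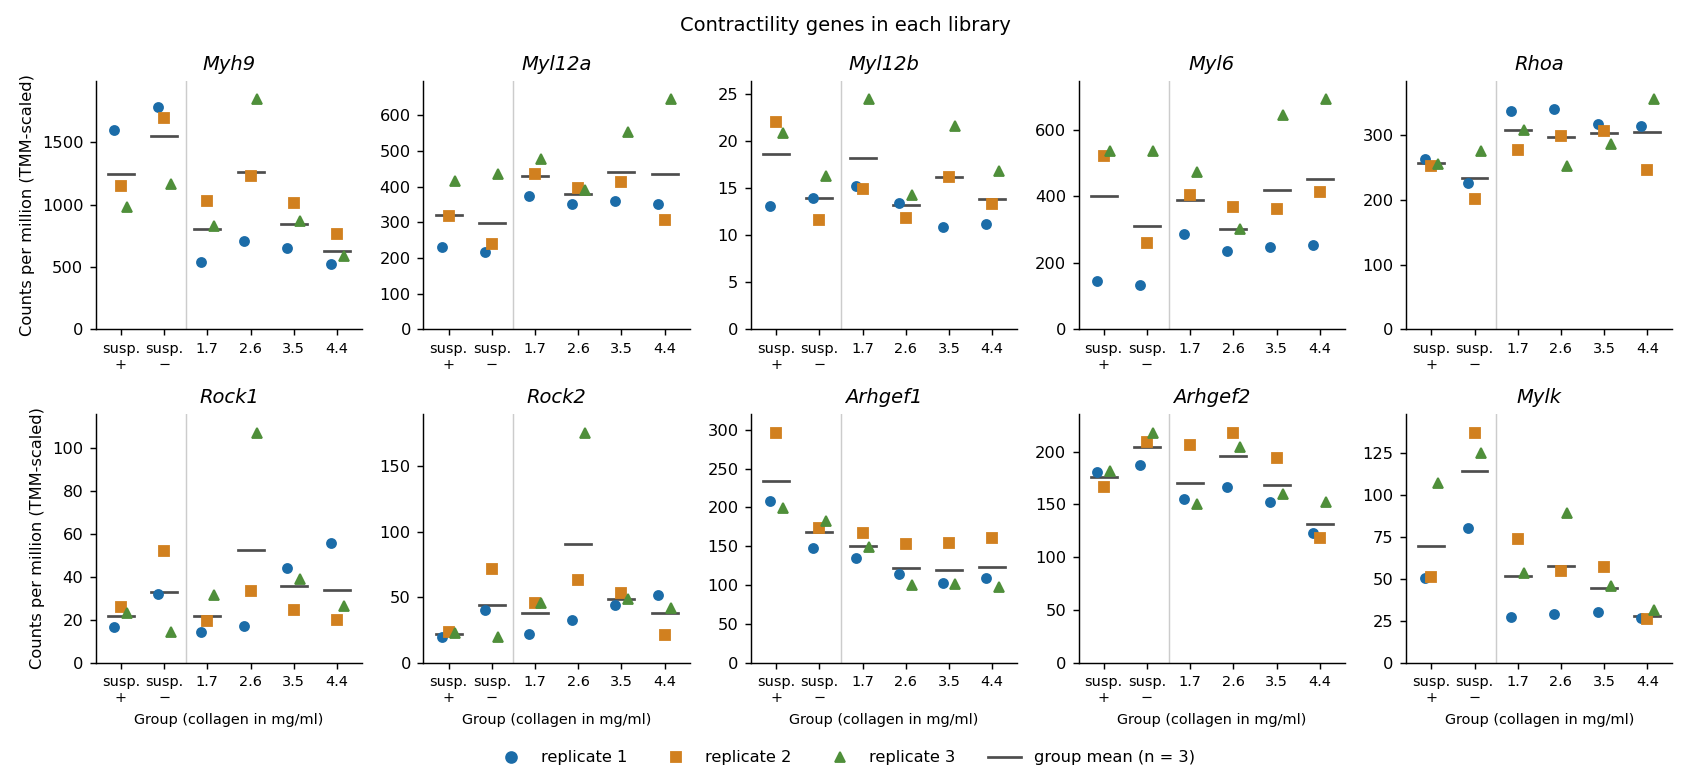
Level of each contractility gene in each library, in CPM after TMM scaling, for the suspension groups titled plus (+) and without (−) CCL19 and the 4 collagen densities. Points are libraries, symbols mark the replicate, and bars are group means (n = 3). At 4.4 mg/ml the Mylk libraries sit between 25.7 and 31.4 CPM, below all 6 suspension libraries, and the 2.6 mg/ml library of replicate 3 is the highest library for Myh9, Rock1, and Rock2.

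To test how the pathway differed between DCs in gels and DCs without a matrix, the 12 collagen libraries were compared with the 6 suspension libraries. Every collagen group had a CCL19 source, whereas the pooled suspension libraries include a group without CCL19, by title or by library name. Matrix and CCL19 therefore cannot be fully told apart in this comparison. Genes for the heavy chain, an exchange factor, and MLCK were lower in collagen. Myh9 fell by 0.70 on the log2 scale, Arhgef1 by 0.63, and Mylk by 1.03, while no member rose. With the replicate number as a block, the same 3 members fell and Myl12a and Rhoa rose. The test was edgeR's quasi-likelihood F-test with Benjamini-Hochberg adjustment over all 13844 genes at a false discovery rate (FDR) of 0.1. In that fit 20.2% of all genes were called, against 3 of 10 members, and with the block 34.8% were called, against 5 of 10 members. The median log2 difference of the members was 0.02, with 5 members above 0 and 5 below.

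**Figure D2:**
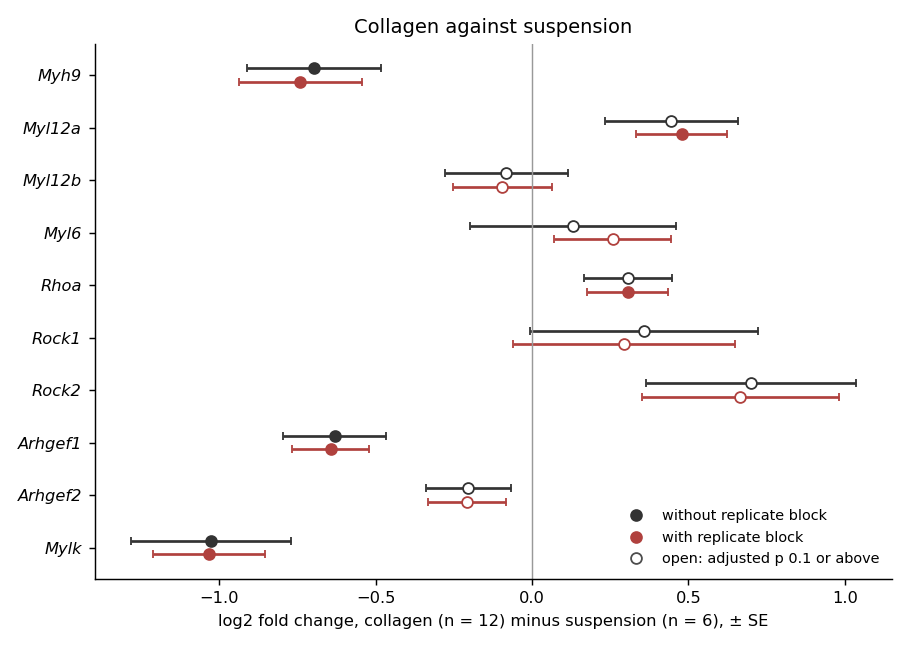
Log2 fold change of each contractility gene between collagen (n = 12) and suspension (n = 6), with the standard error as bars, from fits without (dark) and with (red) the replicate block. Filled points passed the FDR of 0.1. Myh9, Arhgef1, and Mylk are filled and below 0 in both fits, and Myl12a and Rhoa are filled only with the block.

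The heavy chain gene Myh9 (chr15:77760587-77842175, minus strand) was measured at 1595, 1147, and 984 CPM in replicates 1 to 3 of suspension titled plus CCL19 and at 1782, 1693, and 1167 CPM in suspension titled without CCL19. Across collagen it ranged from 526 to 1841 CPM with a median of 799 CPM. Of the 12 collagen libraries, 8 lay below every suspension library and 4 lay above the lowest of them, including the 2.6 mg/ml library of replicate 3, the highest of all 18 for Myh9. The log2 difference was -0.70 ± 0.21 (SE), with an adjusted p of 0.0407 from edgeR, and the blocked fit gave 0.00975. It was lower in collagen in 3 of 3 replicates, by very different amounts, with log2 differences of -1.49, -0.49, and -0.19 in replicates 1, 2, and 3. Without replicate 1, the difference was -0.30 and Myh9 was not called (adjusted p 0.474 in edgeR without and 0.414 with the block). Without replicate 2, it was not called in the fit without block either (-0.82, adjusted p from edgeR 0.201).

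Among the light chains, Myl12a was measured at 230.1, 317, and 414 CPM in replicates 1 to 3 of suspension titled plus CCL19 and at 216, 239, and 434 CPM in suspension titled without CCL19. In collagen it ranged from 307 to 644 CPM with a median of 393 CPM. The groups overlapped, and in both the highest library belonged to replicate 3. The log2 difference was 0.45 ± 0.21 and missed the threshold (adjusted p from edgeR 0.179), whereas with the block it was 0.48 ± 0.15 and Myl12a rose (adjusted p 0.0210). This call was lost without replicate 1 (adjusted p with the block 0.245) or replicate 2 (0.106). The differences within replicates were 0.68, 0.48, and 0.26. Myl12b differed by -0.08 (adjusted p 0.826), with 11.6 to 22 CPM in suspension and 10.8 to 24.4 CPM in collagen. When the counts of both genes were summed, the log2 difference was 0.42 ± 0.21 (adjusted p 0.198 in edgeR), and the blocked fit gave 0.45 ± 0.14 (adjusted p 0.0262). Myl6 was not called at 0.13 ± 0.33 (adjusted p 0.834), but it passed at 0.40 with the block and offsets for GC content and length (adjusted p 0.0785). It varied with the replicate, from 135 to 146 CPM in the suspension libraries of replicate 1 to 536 to 537 CPM in those of replicate 3. Of the 50-base windows of Myl6 transcripts, 8.38% also occur in other annotated genes.

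Rhoa (chr9:108306129-108337934, plus strand) had an SD of 27.1 CPM around a mean of 245 CPM in suspension. It was measured at 262, 252, and 255 CPM in replicates 1 to 3 of suspension titled plus CCL19 and at 225, 202, and 276 CPM in suspension titled without CCL19, against 247 to 355 CPM with a median of 307 CPM in collagen. The collagen libraries were mostly above the suspension libraries, with an overlap between 247 and 276 CPM. The log2 difference was 0.31 ± 0.14 and missed the threshold (adjusted p 0.168 in edgeR), whereas in the blocked fit it was 0.31 ± 0.13 and Rhoa rose (adjusted p 0.0890). Within replicates the differences were 0.43, 0.32, and 0.17, and the blocked call was lost without any single replicate (adjusted p 0.115 to 0.408). With the block and offsets for GC content and length, Rhoa was not called (0.27, adjusted p 0.310). The gene overlaps Tcta on the opposite strand, which was at 13.3 to 73.3 CPM, and the counting is not stated to use strand.

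Neither ROCK kinase was called across all densities. Rock2 (chr12:16894895-16987823, plus strand) was at 19.2, 23.2, and 22.6 CPM in replicates 1 to 3 of suspension titled plus CCL19 and at 40.4, 71.1, and 19.5 CPM in suspension titled without CCL19, and at 21 to 176 CPM in collagen with a median of 45.4 CPM. The log2 difference was 0.70 ± 0.34 (adjusted p 0.184 in edgeR without and 0.128 with the block), with values of 0.35, 0.06, and 1.59 within replicates. Rock1 lies on chromosome 18 (chr18:10064401-10182045, minus strand) and was at 14 to 52 CPM in suspension and 14 to 107 CPM in collagen. Its log2 difference of 0.36 ± 0.37 (adjusted p 0.573) came from opposite signs within replicates, namely 0.26, -0.64, and 1.26.

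Of the exchange factors, Arhgef1 (chr7:24902912-24926594, plus strand), which couples G12 and G13 proteins to RhoA, was lower in collagen at 98 to 167 CPM with a median of 124 CPM. In suspension it was at 208, 297, and 199 CPM in replicates 1 to 3 of the group titled plus CCL19 and at 147, 173, and 183 CPM in the group titled without CCL19. Of the suspension libraries, 147 CPM alone lay within the range of collagen. The log2 difference was -0.63 ± 0.17 (adjusted p 0.0189 in edgeR without and 0.000977 with the block), and the 3 replicates gave -0.61, -0.52, and -0.79. Without any single replicate the adjusted p from edgeR was 0.106 to 0.151, so that the call was lost, but with the block it remained in all 3 cases. Arhgef2, the microtubule-bound exchange factor also known as GEF-H1, differed by -0.20 ± 0.14 (adjusted p 0.360), with 166 to 218 CPM in suspension and 118 to 218 CPM in collagen.

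Mylk (chr16:34745210-35002420, plus strand), which encodes MLCK, had the largest difference of the 10 members. It was at 50.6, 51.1, and 107 CPM in replicates 1 to 3 of suspension titled plus CCL19 and at 80.5, 137, and 125 CPM in suspension titled without CCL19, against 25.7 to 89.3 CPM with a median of 38.5 CPM in collagen. The log2 difference was -1.03 ± 0.26 (adjusted p from edgeR 0.0148), with -1.17, -0.76, and -1.18 in replicates 1 to 3 and an adjusted p of 0.000460 with the block. The call was lost without replicate 2 (adjusted p 0.124) or replicate 3 (adjusted p 0.110) in the fit without block, and was kept in both cases with the block. MLCK is abundant in smooth muscle, and the 5 smooth muscle markers summed to 4.33 to 34.8 CPM in suspension and 5.11 to 22.8 CPM in collagen. Most of this sum was Acta2, with a median of 7.10 CPM in suspension and 7.88 CPM in collagen. Medians of Myh11 (0.732 and 0.207 CPM) and Tagln (0.377 and 0.230 CPM) were lower in collagen. Of 3 markers tested, 0 were called without the block and 1 was lower with it. Whether smooth muscle cells contributed to Mylk was not tested. The locus encodes several proteins, including telokin, which counts per gene do not separate.

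The members differed in base composition. The GC content was 57.0% for Myh9 and 60.5% for Arhgef1, 50.4% to 53.7% for Myl12a, Myl12b, Myl6, Arhgef2, and Mylk, and 43.1% for Rhoa, 41.4% for Rock2, and 40.2% for Rock1. Over all genes tested, the median log2 difference between collagen and suspension was 0.22 for the 3459 genes with the lowest GC content (up to 45.1%) and -0.17 for the 3459 with the highest (from 54.4%). With the block and offsets for GC content and length, the difference was -0.43 for Myh9 (adjusted p from edgeR 0.0668), -0.30 for Arhgef1 (adjusted p 0.0463), and -0.76 for Mylk (adjusted p 0.00202), while Rock2 rose by 0.59 (adjusted p 0.0106), Myl12a by 0.56 (adjusted p 0.00492), and Myl6 by 0.40 (adjusted p 0.0785).

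Next, each density was set against the same 6 suspension libraries, so the 4 comparisons share their controls and the mix of CCL19 states among them. At 1.7 mg/ml no member was called, with values from -0.79 for Myh9 and Mylk to 0.47 for Myl12a. At an unadjusted p under 0.05, 1 member passed in edgeR and 2 in DESeq2, which called 0 members without the block and 3 with it. Across all genes edgeR called 0.0361% at this density, and 2.91% with the block. At 2.6 mg/ml, Rock2 rose by 1.55 ± 0.44 (adjusted p from edgeR 0.0646), where 7.87% of all genes were called. This call rested on the replicate 3 library. Rock2 was at 32.2, 63, and 176 CPM in the 3 libraries, and without the 176 CPM library the difference was 0.66 and not called (adjusted p from edgeR 0.553). With the block, 21.6% of all genes were called at 2.6 mg/ml, and Arhgef1 (-0.71, adjusted p 0.0161) and Mylk (-0.70, adjusted p 0.0898) fell in addition. Without the replicate 3 library, the blocked fit no longer called Arhgef1 (adjusted p 0.120) or Rock2 (0.404). The blocked call of Arhgef1 was lost without replicate 1 (0.109) or replicate 3 (0.180), and that of Mylk without any single replicate (0.157 to 0.343) and with offsets for GC content and length (-0.59, 0.1005). Without replicate 2, Rock2 was not called in the fit without block (0.321). With the block, Rock2 was at 1.44 (adjusted p from edgeR 0.0318). Adding offsets for GC content and length lowered it to 0.91, and it stayed called (adjusted p 0.00897), as did Arhgef1 (-0.44, adjusted p 0.0620). In the 2.6 mg/ml library of replicate 3, deviations in gene level correlated with GC content at -0.527 (Spearman), the strongest such correlation of any library. The offsets were not fitted without that library.

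At 3.5 mg/ml, edgeR called none of the members and 4.9% of all genes, although 3 members passed an unadjusted p under 0.05, and DESeq2 called 1 member. With the block, which called 18.4% of all genes, Myh9 (-0.76, adjusted p 0.0979), Arhgef1 (-0.75, adjusted p 0.0147), and Mylk (-1.01 without the block, adjusted p with it 0.0251) fell and Myl12a rose (0.54, adjusted p 0.0827). With offsets for GC content and length in addition, Myh9 (-0.27, adjusted p 0.514), Arhgef1 (-0.24, adjusted p 0.353), and Mylk (-0.61, adjusted p 0.110) were not called. Myl12a stayed called with these offsets (0.69, adjusted p from edgeR 0.0219). Without replicate 1 or replicate 3, the blocked fit called none of the 4 (adjusted p 0.203 to 0.619 and 0.115 to 0.161), and without replicate 2 it called Arhgef1 and Mylk. At 4.4 mg/ml, the densest gel, 14.8% of all genes and 3 members were called. Mylk fell by 1.68 ± 0.41 (adjusted p from edgeR 0.0165), and the differences of Myh9 (-1.15 ± 0.33, adjusted p 0.0382) and Arhgef1 (-0.69 ± 0.25, adjusted p 0.0881) also passed. Without replicate 1, Mylk alone was called (adjusted p 0.0208), and without replicate 2 or 3 none of the 3 was. With the block, the 3 calls were lost for Myh9 and Arhgef1 without replicate 1 (adjusted p 0.124 and 0.163) and held otherwise. The libraries of replicates 1 to 3 at this density were at 26.4, 25.7, and 31.4 CPM for Mylk and at 526, 766, and 586 CPM for Myh9. With the block, where 31.9% of all genes were called, Arhgef2 also fell (-0.54, adjusted p 0.0413) and Myl12a rose (0.48, adjusted p 0.0851). Adding offsets for GC content and length kept the calls of Mylk (-1.30, adjusted p from edgeR 0.00105) and Myh9 (-0.85, adjusted p 0.0181). Arhgef1 (-0.38, adjusted p 0.0804) and Myl12a (0.55, adjusted p 0.0352) also stayed called. Arhgef2 was at 123, 118, and 153 CPM at 4.4 mg/ml, below all 6 suspension libraries, but at -0.23 with offsets for GC content and length it was not called (adjusted p 0.360). The blocked call of Arhgef2 was also lost without replicate 1 (adjusted p 0.336), replicate 2 (0.193), or the 4.4 mg/ml library of replicate 2 alone (0.153), and that of Myl12a without any single replicate (0.135 to 0.342).

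For Mylk, Myh9, and Arhgef2, the 4.4 mg/ml libraries did not overlap with suspension, as was true of 14.2% of all genes tested at this density. Rhoa did not overlap at 1.7 mg/ml and 3.5 mg/ml, where all its libraries were higher than in suspension and 5.26% and 10.2% of all genes did not overlap. No member was free of overlap at 2.6 mg/ml (10.5% of all genes) or over all collagen libraries (2.02%).

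**Figure D3:**
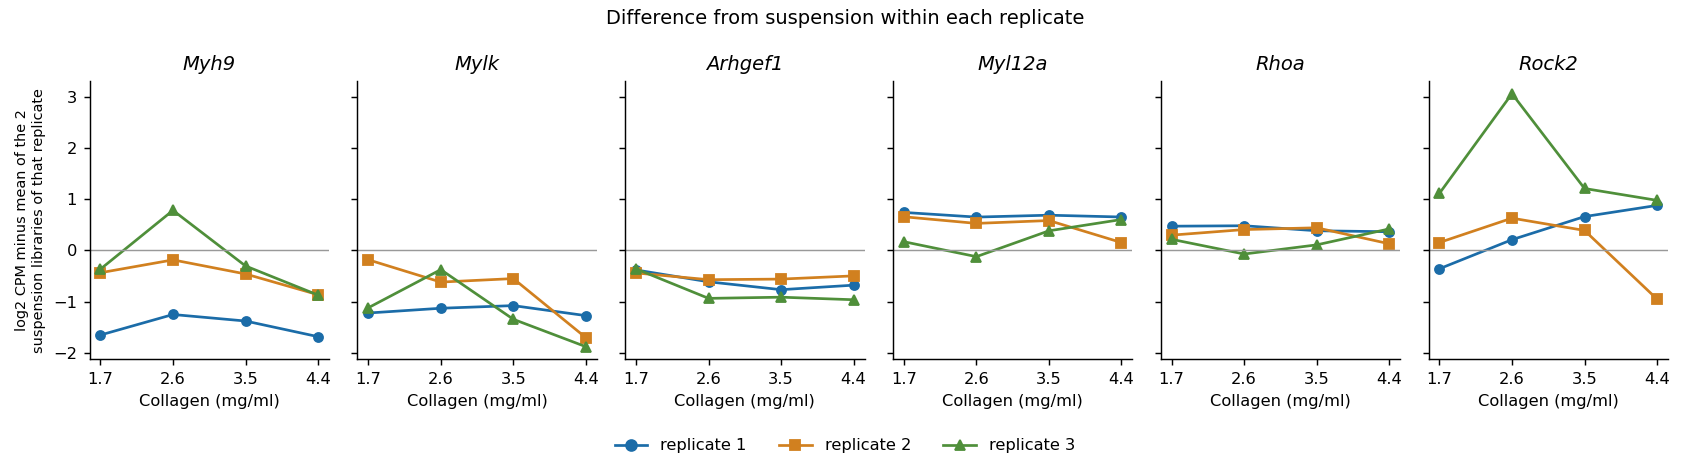
Difference in log2 CPM between each collagen library and the mean of the 2 suspension libraries of its replicate, for 6 contractility genes against collagen density (mg/ml). Lines join the libraries of a replicate. Arhgef1 is below 0 at every density in all replicates, Mylk reaches -1.27 to -1.88 at 4.4 mg/ml, and Rock2 peaks at 3.06 in replicate 3 at 2.6 mg/ml.

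To ask whether the members changed with density among the gels, a linear trend was fitted over the 12 collagen libraries. No member followed it at an FDR of 0.1 in edgeR, with or without the block, or in DESeq2, and 1 member passed an unadjusted p under 0.05 in edgeR. Slopes per mg/ml ranged from -0.34 ± 0.15 for Mylk (adjusted p 0.668 in edgeR without and 0.209 with the block) to 0.15 ± 0.21 for Rock1 (adjusted p 0.987). The slope of Mylk was below 0 in 3 of 3 replicates, from -0.50 to -0.01, as were those of Myh9 (-0.29 to -0.02), Myl12b (-0.18 to -0.004), Arhgef1 (-0.20 to -0.02), and Arhgef2 (-0.29 to -0.03). The other 5 members had slopes of both signs. How many of all genes had slopes of the same sign in every replicate was not counted, so no density response is read from these signs. The trend was called for 0.00722% of all genes and for 1.45% with the block. A lower level of Mylk at 4.4 mg/ml than at 1.7 mg/ml was thus not detectable as a linear trend.

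The suspension groups did not differ in any member in edgeR or DESeq2, and 0% of all genes were called in edgeR with or without the block, although 855 genes passed an unadjusted p under 0.05 without it and 1960 with it. DESeq2 called 0 genes, and 194 with the block. None of the members passed an unadjusted p under 0.05 in either tool without the block, and with it 2 passed in edgeR and 3 in DESeq2. The values (titled plus CCL19 minus titled without) ran from -1.01 ± 0.54 for Rock2 (adjusted p from edgeR 0.761) to 0.48 ± 0.28 for Arhgef1 (adjusted p 0.761). Mylk was at -0.71 ± 0.43 (adjusted p 0.761), so a difference of this size between the suspension groups was not resolved.

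A list of 90 further genes that regulate or work with myosin II and RhoA was then examined in collagen against suspension. It was written by role and not by response, although earlier results of these data were known. Of these, 79 were tested, 6 rose, 18 fell, and 55 did not pass, beside 7.78% of all genes that rose and 12.4% that fell. With the block 12 rose and 23 fell, beside 15.6% and 19.3% of all genes. The median log2 difference was -0.10, and 0.003 over all genes. The counts by role are small and were not tested against these shares.

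Genes that act with the members on the light chain moved both ways. Ppp1cb, the catalytic subunit of myosin phosphatase, rose by 1.00 ± 0.27 (adjusted p from edgeR 0.0225), from 64.8 ± 26.7 CPM in suspension to 129 ± 63 CPM in collagen, and was the only gene of 6 tested for the phosphatase that rose without the block. Its targeting subunits gave 0.39 for Ppp1r12a (adjusted p 0.377, and 0.313 with the block), 0.65 for Ppp1r12b (adjusted p 0.386, and 0.0313 with the block), and -0.27 for Ppp1r12c (adjusted p 0.255, and 0.0855 with the block). Of 9 kinases tested that phosphorylate light chains or the proteins around myosin, 3 fell, namely the MRCK kinase Cdc42bpg (-1.13), Stk10 (-1.09), and Dapk3 (-0.54), and the citron kinase gene Cit, at 1.45 CPM in suspension and 0.708 CPM in collagen, gave -1.09 (adjusted p 0.265, and 0.0188 with the block). Dapk3 was near the threshold (adjusted p from edgeR 0.0935) and was called in 7 of 17 alternatives. Cdc42bpg and Stk10 were called in all 17. Of 3 other heavy and light chain genes, Myl9 gave -1.73 (adjusted p 0.186, and 0.0692 with the block) but averaged only 0.978 CPM in suspension.

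Of 5 tested RhoA-like and Rnd GTPases, 2 rose, and both belong to the atypical Rnd family, of which Rnd1 and Rnd3 are known to oppose RhoA. Rnd3 rose by 1.56 ± 0.33 (adjusted p from edgeR 0.00631), from 2.92 ± 1.63 to 8.76 ± 4.68 CPM, and Rnd1 by 0.91 ± 0.32 (adjusted p 0.0742). Rnd2 gave 0.92 (adjusted p 0.314, and 0.0193 with the block). Of 14 tested exchange factors and G proteins, 5 fell in edgeR and 9 did not pass, and with the block Gna13 rose. Those that fell included Arhgef11 (-1.09), Arhgef18 (-1.07), Plekhg5 (-0.83), and Arhgef40 (-0.75). GTPase-activating proteins, which switch RhoA off, were also lower for 3 of 12 tested, with Myo9b at -1.04, Arhgap45 falling from 605 to 306 CPM, and Stard8 at -0.63, while Arhgap1 gave -0.65 (adjusted p 0.115, and 0.00231 with the block). With the block and offsets for GC content and length, Stard8 was not called.

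Among 15 tested effectors, 2 rose and 5 fell. The RhoA-dependent kinase Pkn2 rose by 1.34 ± 0.28 and the membrane-actin linker Rdx by 0.79 ± 0.30, while LIM kinase Limk1, which inhibits cofilin, fell by 0.84. Rhpn2 gave 1.75 (adjusted p 0.152, and 0.0432 with the block) at less than 1 CPM on average in both groups. Of 10 actin, tropomyosin, and actomyosin-binding genes, gamma-actin (Actg1) rose by 1.20 ± 0.26, but it was listed at 2.89 CPM in suspension and 6.87 CPM in collagen, and 37.4% of the 50-base windows of its transcripts occur in other genes, so its counts are uncertain. Called only with the block were Svil (-0.68), Tpm4 (0.51), and S100a4 (0.50), whose values here are from the fit without it.

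SRF and its actin-regulated coactivators MRTF-A and MRTF-B drive many contractile genes. Both coactivator genes fell, Mrtfa by 0.89 ± 0.13 (adjusted p from edgeR 0.000746), from 335 ± 82.7 to 177 ± 20.1 CPM, and Mrtfb by 0.97 ± 0.28 (adjusted p 0.0324). Mrtfb differed by very unlike amounts, with -1.65, -0.58, and -0.26 in replicates 1, 2, and 3. Its difference shrank to -0.36 without replicate 1 in the blocked fit. It was called in 14 of 17 alternatives, and Mrtfa in all 17. Srf itself was at 53.6 ± 8.98 CPM in suspension and 62.4 ± 8.75 CPM in collagen (adjusted p 0.348). Because these genes moved, promoters from RefSeq (GRCm38.p6, 250 bases before to 50 after a start) were searched on both strands for the CArG box, the 10-letter SRF motif, which reads as the same motif on either strand. Of the members, 9 matched with 15 promoters, and Rock1 did not. The box was found in 1 of the 15 (6.67%), a promoter of Myl6, in 4 of 110 promoters of the longer list (3.64%), and in 535 of all 32851 promoters (1.63%). The sites of all 5 genes are printed with the box in capitals, and Srf holds a pair of boxes whose printed windows overlap. Rnd3 and Actg1 rose, Myl9 fell with the block only, Srf was not called, and Myl6 was called only with the block and offsets for GC content and length.
Myl6 (chr10:128493040-128493069, minus strand): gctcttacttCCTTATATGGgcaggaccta
Rnd3 (chr2:51149192-51149221, minus strand): ctcccaggctCCATAAAAGGggaggaggcg
Actg1 (chr11:120348566-120348595, minus strand): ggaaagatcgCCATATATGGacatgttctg
Myl9 (chr2:156775293-156775322, plus strand): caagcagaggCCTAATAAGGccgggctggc
Srf (chr17:46556225-46556254, minus strand): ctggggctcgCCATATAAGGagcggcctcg
Srf (chr17:46556205-46556234, minus strand): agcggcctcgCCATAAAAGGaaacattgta
Relative to the start, the boxes begin at -50 (Myl6), -100 (Rnd3), -90 (Actg1), -161 (Myl9), and -82 and -62 (Srf). No box was found in the promoters of Myh9, Myl12a, Rhoa, Arhgef1, or Mylk in this window.

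**Figure D4:**
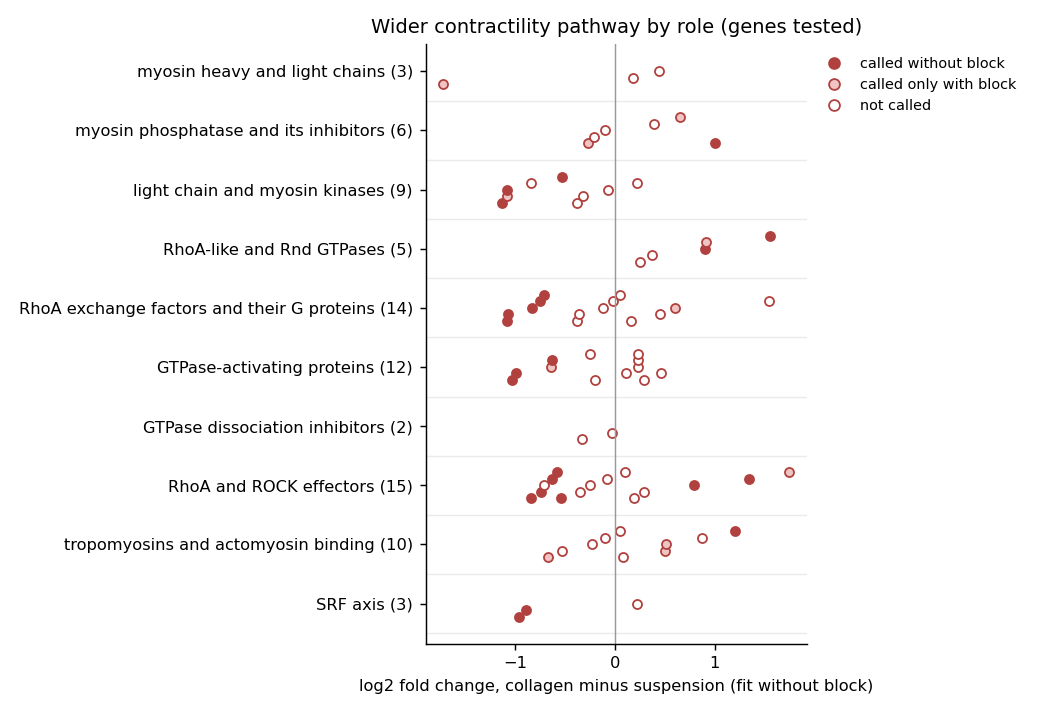
Log2 fold change between collagen (n = 12) and suspension (n = 6) for the tested genes of the longer pathway list, by role, with the number tested in parentheses. Filled points passed the FDR of 0.1 without the block, pale points only with it, and open points in neither fit. Rnd GTPases lie above 0, and the called exchange factors and GTPase-activating proteins below 0 except for a pale point at 0.60, the G protein gene Gna13.

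Finally, genes whose pattern over the 18 libraries was most like that of a member were listed by the root mean square difference of log2 CPM after centering and scaling to unit SD. For Myh9 these were Zzef1, Setd1b, Parp4, and Wdfy3, at 0.311 to 0.338. For Mylk they were Tbc1d14, Nfya, Hps5, and Chfr, at 0.325 to 0.357. For Rhoa the closest genes were more distant, with Pdk3, Atp6v1e1, Laptm4a, and Commd1 at 0.439 to 0.489. No other member was among the 4 genes nearest to Myh9, Rhoa, or Mylk.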

How the data were processed

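For 18 libraries, the authors deposited raw counts of reads by gene (Ensembl identifiers), which were not normalized. Libraries were stranded mRNA, read from a single end for 50 bases. STAR 2.7.0f and GRCm38 are named in the submitters' processing notes. The study's methods name RSEM for TPM values, and the tool behind the deposited counts and its handling of strand are not given in the sources used here. Symbols, positions, GC content, and union exon lengths came from GENCODE M21 (29866 of 29875 genes matched).

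Counts were filtered (filterByExpr), scaled by TMM, and tested in R 4.3.3 with edgeR 4.0.16 (quasi-likelihood F-test) in a single fit over all libraries at an FDR of 0.1, the threshold of the study's methods. CPM used TMM-scaled library sizes and log2 CPM a prior count of 2. edgeR's biological coefficient of variation came to 49.0% without the block by replicate number and to 33.1% with it. The number pairs the libraries because library names give a shared date and lane, and deviations from group means correlated at 0.434 on average over 45 same-number pairs (-0.149 to 0.846) and at -0.214 over 90 others. The second mean follows largely from the first, because deviations within a group cancel out, so it is no separate evidence of pairing. p-values measure the spread between these libraries. Alternatives were the block, DESeq2 1.42.0, its size factors, no filter, GC and length offsets with the block (loess, span 0.5), an FDR of 0.05, fits of the groups compared alone, and libraries left out. Omission of the 2.6 mg/ml library of replicate 3 was chosen after seeing the data. The fit was also run on simulated counts, which lacked the GC trends of these libraries. That run therefore does not measure the error of the fit in these data.

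The 10 members and the gene lists were chosen with earlier results of these data known. Named genes were all members, up to 4 genes per role of the longer list called with the block and ordered by the size of the difference without it, and the 4 genes most alike Myh9, Rhoa, and Mylk. Gna13, Ppp1r12a, and Srf were named outside this rule, after their values were seen.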

Additional observations from a re-analysis of the deposited data

How the results depend on the processing

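In collagen against suspension, 3 members were called, and 5 with the replicate block, 6 with DESeq2 and the block, and 6 with the block and GC and length offsets. Leaving out a replicate or a single library gave 0 to 3 calls without the block. With the block it gave 2, 4, and 4 without replicates 1, 2, and 3, and without the 4.4 mg/ml library of replicate 2 or the 2.6 mg/ml library of replicate 3 it gave 6 and 5. At 1.7 mg/ml there were 0 calls, but 3 with DESeq2 and the block, and with the block 1 and 2 when these libraries were left out in the same order. At 2.6 mg/ml there was 1 call, against 3 with the block, 2 with DESeq2, 3 with DESeq2 and the block, 2 with the offsets, 0 at an FDR of 0.05, 0 with only the groups compared in the fit, and 0 to 2 without single replicates or libraries. With the block it gave 1 without replicate 1, 2 without replicate 2, 0 without replicate 3, 1 without the 2.6 mg/ml library of replicate 3, and 3 without the 4.4 mg/ml library of replicate 2. At 3.5 mg/ml there were 0 calls, against 4 with the block, 1 with DESeq2, 4 with DESeq2 and the block, and 2 with the offsets, and with the block 0 without replicate 1, 2 without replicate 2, 0 without replicate 3, and 4 without either library. At 4.4 mg/ml there were 3 calls, against 5 with the block and 5 with DESeq2 and the block, 0 to 3 without single replicates or libraries, and with the block 1, 3, and 4 without replicates 1, 2, and 3, 4 without the 4.4 mg/ml library of replicate 2, and 5 without the 2.6 mg/ml library of replicate 3. The trend and the suspension groups gave 0 calls under every alternative run.

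Over the alternatives, 833 values of single genes kept their direction and side of the threshold, 132 passed it where the reported value did not, and 83 no longer passed it. With the block and offsets, 2 values changed sign, Arhgef2 (0.0664) and Ppp1r12c (0.0155). When replicates were left out, Myl6 ranged from -0.00178 to 0.33 without the block, Rock1 in collagen against suspension from -0.14 to 0.89 (-0.13 with the block and without replicate 3), and the Rock1 slope from -0.16 to 0.44 (-0.15 with the block and without replicate 1). The causes were not tested.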
